A study of Mus musculus with 7 samples.

Results

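The 34 genes described here encode presynaptic vesicle proteins and the machinery of transmitter release: SNARE proteins, vesicle proteins, vesicular glutamate transporters, active zone scaffolds, priming and fusion factors, and the factors that recycle SNAREs. Synaptotagmins were not included. The rule names the genes and uses no measured difference. The members and the other gene lists were, however, chosen with earlier results of these data known, so their counts are descriptions. Each gene was read from the brightest probe set annotated with that symbol alone. Of the 34 genes, 33 passed the filter on dim probe sets, among 16144 genes tested. Vamp2 was the exception: its probe set also carries the symbol Ubr3, so it was not analysed here.

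The samples were whole neocortex of C57BL/6 mice, 4 labelled CKO with the genotype COUP-TFI_Nex-Cre and 3 labelled wild type (WT), each on 1 Affymetrix array. COUP-TFI is the nuclear receptor encoded by Nr2f1, and Nex-Cre acts from the Neurod6 locus in postmitotic glutamatergic neurons, so other cells of the tissue would keep the gene. The labels give no age, do not spell out the alleles and do not say whether WT animals carried Cre. Separate animals are not stated either, so the p-values measure spread among these samples only, and it may be technical. An array is called by its group and label number. RNA integrity numbers were all 10, with 0.2 µg of RNA per array.

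Neurotransmitter is packed into vesicles by transporters, and synapsins hold the vesicles in a reserve near the release site. At the active zone, large scaffold proteins dock vesicles, Munc13 proteins prime them by helping SNARE proteins assemble, and complexins and calcium sensors set when the assembled SNAREs fuse the membranes. NSF and its SNAP adaptors then take the SNARE complex apart for reuse. In the neocortex these genes are expressed as projection neurons and interneurons mature.

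Values are log2 signals and differences are CKO minus WT. They came from limma, a linear model with a variance estimate shared across all genes, and p-values were adjusted by Benjamini-Hochberg over all 16144 genes. Nr2f1 itself averaged 10.68 in CKO against 11.04 in WT, a difference of -0.36 (SE 0.0738), and the groups did not overlap; where its probe set lies within the gene is not known here, so this checks no label. Neurod6, whose locus carries the Cre, differed by -0.20 (SE 0.0567). Of 9 markers of cortical glutamatergic neurons, 7 were tested, and they averaged between 12.53 and 12.64 on every array. The array WT 38 stood apart from the other 6 on the first principal component (15.2 against -7.0 to 1.8, 27.7% of the variance). On the second component WT 6 stood apart (-12.1 against -5.8 to 6.8, 23.3%). Leaving out WT 38 or WT 6 moved the counts of members, so the main results are given with and without WT 38, and the counts also without WT 6. The array identifiers in the labels fall into 3 sets that share their leading digits: set 1 held CKO 1 and CKO 4, set 2 held CKO 34, CKO 43, WT 27 and WT 38, and set 3 held WT 6. The sources do not say whether a set was processed together. Within set 2 each group has 2 arrays.

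No presynaptic gene passed an adjusted p of 0.05, where 4 of all genes did (0.0248%). At an unadjusted p under 0.05, 7 members remained, and they went both ways. Doc2b, Sv2b, Syn2, Syn3 and Rab3a were lower in CKO, or 15.2% of the 33 members against 2.61% of all genes. Cplx1 and Doc2a were higher, or 6.06% of members against 4.17% of all genes. The groups did not overlap, with CKO lower, for 4 members, Doc2b, Sv2b, Rab3a and Ppfia2, or 12.1% against 2.99% of all genes. No member had every CKO array above every WT array, where 5.39% of all genes did. Of the 33 members 22 had a negative difference, or 66.7% against 41.1% of all genes, and their median was -0.07 against 0.01. In bulk tissue, fewer cells of a type and less RNA per cell cannot be told apart.

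**Figure D1:**
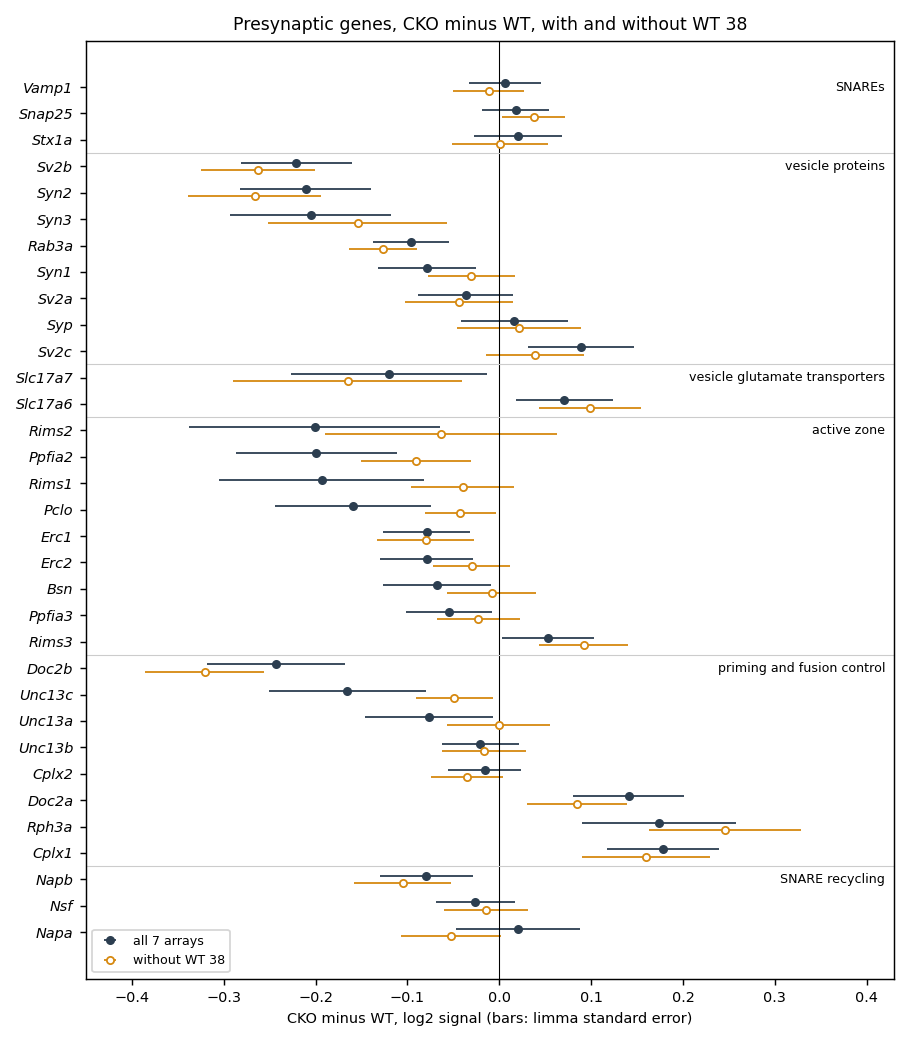
CKO minus WT difference in log2 signal (horizontal axis) for the 33 presynaptic genes, grouped by role, over all 7 arrays (filled) and without WT 38 (open), with limma standard errors as bars. Doc2b, Sv2b, Syn2 and Rab3a lie farther below 0 without WT 38, while Rims1, Rims2, Pclo, Ppfia2 and Unc13c lie closer to 0.

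Leaving out WT 38 separated the lower members into sets. Doc2b, Sv2b, Syn2 and Rab3a moved away from 0 and were the 4 members lower at an unadjusted p under 0.05 (12.1% against 5.90% of all genes). Sv2a, Slc17a7, Erc1, Cplx2 and Napb also moved away from 0. Rims1, Rims2, Pclo, Ppfia2, Unc13c and Syn3 moved toward 0. So did Syn1, Bsn, Erc2, Ppfia3, Unc13a, Unc13b and Nsf, whose differences were smaller. Rph3a was then the 1 member higher at that threshold (3.03% against 5.00% of all genes). Without WT 38 the groups did not overlap for 6 lower members, Syn2, Sv2b, Rab3a, Ppfia2, Doc2b and Napb (18.2% against 10.5% of all genes). They did not overlap for 3 higher ones, Snap25, Rims3 and Rph3a (9.09% against 11.7%). No member passed the adjusted p there either, with limma, where 1 of all genes did (0.00619%). The median of the members went to -0.03, with 24 of 33 negative (72.7% against 46.9% of all genes). The sign changed for Vamp1 and Napa alone, or 6.06% of members against 19.4% of all genes, and both had differences near 0. Other arrays also set these counts. Without WT 6, 8 members were lower at an unadjusted p under 0.05: Syn1, Syn2, Syn3, Sv2b, Rims2, Ppfia2, Unc13c and Doc2b (24.2% against 2.69% of all genes) and 0 higher (against 3.90%). The groups then did not overlap for 10 lower members (30.3% against 7.26%). Without CKO 4, 3 were lower (9.09% against 1.51%) and 1 was higher (3.03% against 2.31%). Without CKO 43, 3 were lower (against 2.00%) and 1 was higher (against 3.74%).

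Within set 2 alone, 4 members were lower at that threshold, Syn2, Syn3, Sv2b and Rims2 (12.1% against 1.93% of all genes). None was higher (against 1.08%), so Cplx1 and Doc2a were not past it there, nor were Doc2b and Rab3a. With the identifier set as a fixed block 5 were lower, Syn1, Syn2, Sv2b, Rims2 and Unc13c (15.2% against 2.40%), and 0 higher (against 1.39%). Sv2b and Syn2 were thus the members lower at that threshold in each of these fits. Without WT 27, a fit not among these, Sv2b was past it and Syn2 was not.

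Among the 8 vesicle proteins, Sv2b, Syn2, Syn3 and Rab3a were lower in CKO at an unadjusted p under 0.05 (50% against 2.61% of all genes). Syn1, Sv2a, Sv2c and Syp were not past it. Without WT 38, 3 of the 8 were lower at that threshold, Sv2b, Syn2 and Rab3a (37.5% against 5.90%). Sv2b encodes a transporter-like glycoprotein of synaptic vesicles. Its log2 signals were 10.01 on CKO 1, 9.92 on CKO 4, 9.79 on CKO 34 and 9.90 on CKO 43, against 10.15 on WT 6, 10.19 on WT 27 and 10.04 on WT 38. Every CKO array lay below every WT array, by a narrow gap between CKO 1 and WT 38. CKO averaged 9.90 ± 0.09 (SD, n = 4) and WT 10.12 ± 0.08 (SD, n = 3). They differed by -0.22 (SE 0.0602), a signal ratio of 0.858, with an adjusted p of 0.711 in limma. Without WT 38 the difference was -0.26 (SE 0.0619), with an adjusted p of 0.286, and within set 2 it was -0.27.

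Syn2 encodes synapsin II, a phosphoprotein that tethers vesicles in the reserve pool. Its signals were 10.55 on CKO 1, 10.60 on CKO 4, 10.38 on CKO 34 and 10.45 on CKO 43, against 10.69 on WT 6, 10.83 on WT 27 and 10.60 on WT 38. WT 38 lay level with CKO 4, and the other WT arrays lay above every CKO array. The difference was -0.21 (SE 0.0714), or 0.864 of WT (adjusted p 0.711 in limma). It was -0.27 (SE 0.0724) without WT 38 and -0.30 within set 2. Without WT 27, its highest array, it was -0.15 (SE 0.0705). Syn3, for synapsin III, a form expressed early in neuronal development, had 11.14 on CKO 1, 10.83 on CKO 4, 11.13 on CKO 34 and 10.93 on CKO 43, against 11.09 on WT 6, 11.23 on WT 27 and 11.31 on WT 38. CKO 1 and CKO 34 lay above WT 6, so the groups overlapped, and the CKO arrays spread more widely than the WT arrays. Its difference of -0.21 (SE 0.0876) went to -0.15 (SE 0.0975) without WT 38, its highest array, and was -0.24 within set 2.

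Rab3a encodes the small GTPase that binds vesicles to RIM at the active zone. It had 11.21 on CKO 1, 11.21 on CKO 4, 11.18 on CKO 34 and 11.17 on CKO 43, against 11.29 on WT 6, 11.35 on WT 27 and 11.23 on WT 38. The 4 CKO arrays lay close together and below all WT arrays. The difference was small, -0.10 (SE 0.0411) or 0.936 of WT (adjusted p 0.726 in limma), and was -0.13 (SE 0.0372) without WT 38 and -0.11 within set 2. Without WT 27, its highest array, it was -0.06 (SE 0.0392).

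Other vesicle proteins showed smaller differences. Syn1, for synapsin I, differed by -0.08 (SE 0.0534) and was highest on WT 38 at 11.59; its difference was -0.03 without WT 38 and -0.13 without WT 6. Sv2a, the widely expressed SV2 protein, differed by -0.04 (SE 0.0516), and Syp, for synaptophysin, by 0.02 (SE 0.0579). For Syp the 4 CKO arrays lay between 11.18 and 11.20, while WT 6 was at 11.04, WT 27 at 11.29 and WT 38 at 11.18. The WT arrays thus enclosed the CKO arrays. Sv2c, an SV2 protein abundant in the basal ganglia, had the 1 larger positive difference of the group, 0.09 (SE 0.0573), which was 0.04 (SE 0.0532) without WT 38.

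**Figure D2:**
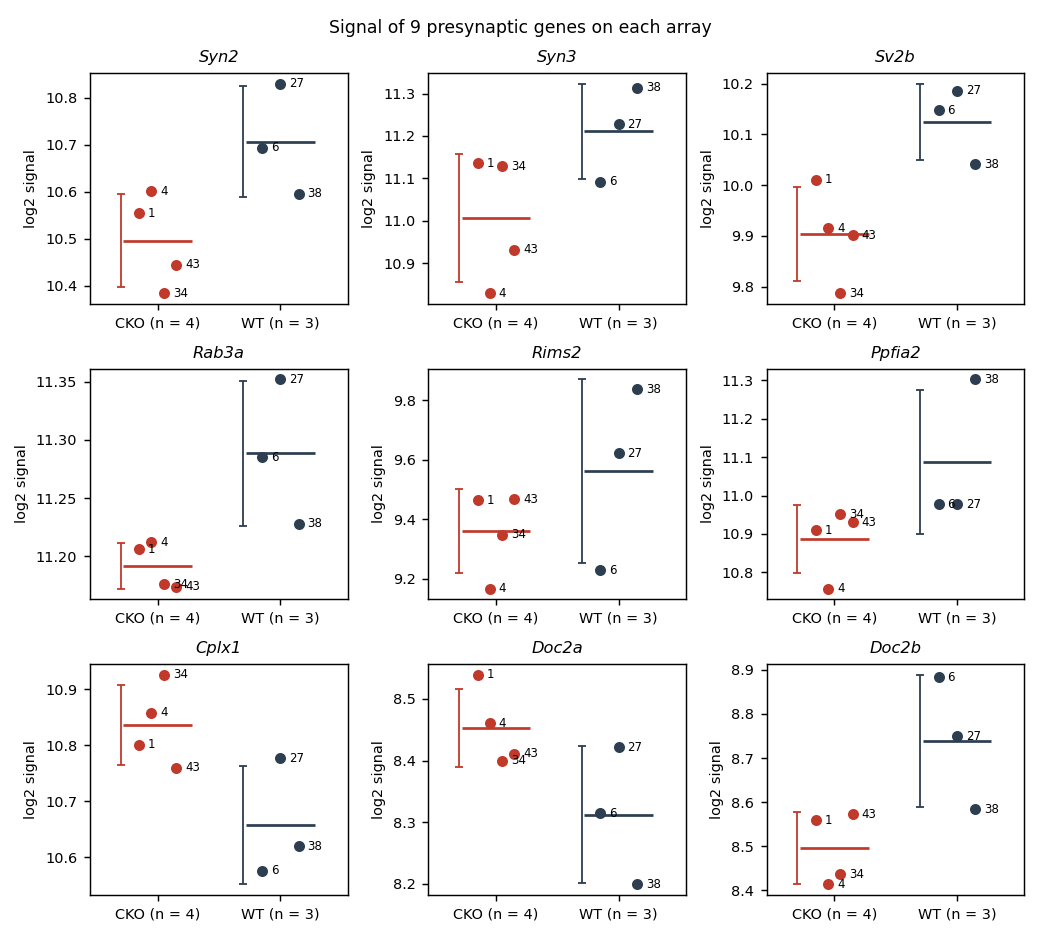
Log2 signal (vertical axis) of 9 presynaptic genes on each array, by group, with the array number beside each point, the group mean as a horizontal line and its SD as a bar; each panel has its own vertical range. For Sv2b, Rab3a, Ppfia2 and Doc2b all CKO arrays lie below all WT arrays, and for Rims2 and Ppfia2 WT 38 is the highest array.

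Promoters of Sv2b, Syn2 and Rab3a, lower in CKO, are shown with those of Cplx1, which was higher in CKO, and of Syn1, which held matches to the motifs searched. They are the 250 bases before the outermost annotated start, from RefSeq on build GRCm38.p6. Capitals mark motif matches, and a sequence without capitals held none.
Sv2b: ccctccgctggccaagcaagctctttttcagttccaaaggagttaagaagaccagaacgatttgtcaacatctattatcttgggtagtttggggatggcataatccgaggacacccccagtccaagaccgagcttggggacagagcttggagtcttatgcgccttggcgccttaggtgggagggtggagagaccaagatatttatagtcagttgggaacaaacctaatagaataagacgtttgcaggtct
Syn2: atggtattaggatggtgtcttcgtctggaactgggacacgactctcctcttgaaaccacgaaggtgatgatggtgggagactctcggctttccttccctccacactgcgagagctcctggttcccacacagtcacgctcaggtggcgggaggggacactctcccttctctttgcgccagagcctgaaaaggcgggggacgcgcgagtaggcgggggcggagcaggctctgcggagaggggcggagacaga
Rab3a: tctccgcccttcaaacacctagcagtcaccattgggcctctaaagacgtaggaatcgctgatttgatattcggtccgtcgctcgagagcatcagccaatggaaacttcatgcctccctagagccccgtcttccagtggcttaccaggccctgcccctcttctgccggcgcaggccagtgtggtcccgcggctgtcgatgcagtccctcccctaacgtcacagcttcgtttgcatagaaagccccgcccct
Cplx1: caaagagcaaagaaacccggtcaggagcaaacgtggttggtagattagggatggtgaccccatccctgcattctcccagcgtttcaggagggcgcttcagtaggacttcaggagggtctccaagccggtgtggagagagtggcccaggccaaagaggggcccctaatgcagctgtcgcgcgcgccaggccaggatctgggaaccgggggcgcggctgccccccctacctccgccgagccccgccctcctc
Syn1: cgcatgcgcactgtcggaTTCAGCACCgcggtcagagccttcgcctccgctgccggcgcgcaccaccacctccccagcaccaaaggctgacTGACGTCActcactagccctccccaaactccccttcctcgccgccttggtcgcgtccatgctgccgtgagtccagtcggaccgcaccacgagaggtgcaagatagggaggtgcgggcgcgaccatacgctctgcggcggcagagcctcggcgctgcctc

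The sequence of Sv2b is at chr7:75309263-75309512 on the minus strand, that of Syn2 at chr6:115134652-115134901 on the plus strand and that of Rab3a at chr8:70754453-70754702 on the plus strand. Cplx1 is at chr5:108550028-108550277 on the minus strand and Syn1 at chrX:20920919-20921168 on the minus strand. Those of Syn3 and Doc2b were not analysed here. The table matched 36 promoters of 28 members, and each window of 300 bases, 250 before to 50 after the start, was searched on both strands. The motifs were the COUP-TF direct repeat (the hexamer AGGTCA repeated in the same direction with 1 base between), the hexamer alone, which lies inside it, the arms TTCAGCACC and GGACAGC of the RE1 element bound by the repressor REST, and the cAMP response element TGACGTCA. The direct repeat was in no member promoter and in 0.0396% of all 32851 promoters. The hexamer was in 1 member promoter, that of Erc2, against 16.3% of all promoters. The left arm of RE1 was in the promoters of Syn1, Ppfia3 and Unc13a (0.371% of all promoters), and the right arm in those of Rph3a and Unc13a (6.56%). The cAMP response element was in those of Syn1 and Napa (1.79%). In Syn1 the left arm begins at position -232 and the cAMP response element at -159 from the start. None of the promoters listed for Sv2b, Syn2, Rab3a, Ppfia2 or Cplx1 held a match. Over the 250 bases before the start, the median GC content was 61.2% in member promoters and 52.4% in all. It was 48.8% in the Sv2b sequence shown and 68.0% in that of Syn1.

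Among the 8 priming and fusion factors, Doc2b had a negative difference at an unadjusted p under 0.05 (12.5% against 2.61% of all genes). Cplx1 and Doc2a had positive ones (25% against 4.17%). Rph3a had a positive difference that was not past that threshold over all arrays, and none passed an adjusted p in limma. Without WT 38, Doc2b was the 1 lower gene past the threshold (12.5% against 5.90%) and Rph3a the 1 higher (12.5% against 5.00%). Doc2b encodes a calcium sensor of spontaneous and asynchronous release. Its signals were 8.56 on CKO 1, 8.41 on CKO 4, 8.44 on CKO 34 and 8.57 on CKO 43, against 8.88 on WT 6, 8.75 on WT 27 and 8.58 on WT 38. All CKO arrays lay below all WT arrays, though WT 38 exceeded CKO 43 by little. CKO averaged 8.50 ± 0.08 (SD, n = 4) and WT 8.74 ± 0.15 (SD, n = 3). The difference was -0.24 (SE 0.0751), the largest in size of the 33 members, or 0.845 of WT (adjusted p 0.711). Without WT 38 it was -0.32 (SE 0.0646), or 0.801 of WT (adjusted p 0.274), and within set 2 -0.16.

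Doc2a, also a calcium sensor and the paralog of Doc2b, had a difference of the opposite sign. Its signals were 8.54 on CKO 1, 8.46 on CKO 4, 8.40 on CKO 34 and 8.41 on CKO 43, against 8.31 on WT 6, 8.42 on WT 27 and 8.20 on WT 38. WT 27 lay above CKO 34 and CKO 43, and WT 38 was the lowest array. Its difference was 0.14 (SE 0.0605), with a fold of 1.10 (adjusted p 0.726); it was 0.08 (SE 0.0543) without WT 38 and 0.10 within set 2.

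Cplx1 encodes complexin 1, which binds the assembled SNARE complex and both clamps and promotes fusion. Its signals were 10.80 on CKO 1, 10.86 on CKO 4, 10.93 on CKO 34 and 10.76 on CKO 43, against 10.58 on WT 6, 10.78 on WT 27 and 10.62 on WT 38. WT 27 lay above CKO 43, and otherwise the CKO arrays were higher. CKO averaged 10.84 ± 0.07 (SD, n = 4) and WT 10.66 ± 0.11 (SD, n = 3). The difference was 0.18 (SE 0.0610), or 1.13 times WT (adjusted p 0.711). It was 0.16 (SE 0.0700) without WT 38 and 0.14 within set 2. Cplx2, for complexin 2, differed by -0.02 (SE 0.0394).

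Rph3a encodes rabphilin, a Rab3 effector on vesicles. It had 9.98 on CKO 1, 9.89 on CKO 4, 9.97 on CKO 34 and 9.83 on CKO 43, against 9.53 on WT 6, 9.81 on WT 27 and 9.89 on WT 38. WT 6 was far below the other arrays, and WT 38 lay above CKO 43. The difference was 0.17 (SE 0.0838), with an adjusted p of 0.727 in limma; it was 0.25 (SE 0.0826) without WT 38 and 0.05 within set 2, which leaves out WT 6. Without WT 6 it was 0.07.

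The Munc13 genes, whose products prime vesicles, differed by -0.08 for Unc13a, -0.02 for Unc13b and -0.17 for Unc13c, with SEs of 0.070, 0.042 and 0.085. Unc13c was at 7.79 on CKO 1, 7.78 on CKO 4, 7.69 on CKO 34 and 7.72 on CKO 43, against 7.78 on WT 6, 7.81 on WT 27 and 8.14 on WT 38. WT 38 alone stood above the rest, and WT 6 and WT 27 lay among or just above the CKO arrays. Without WT 38 the differences of Unc13a and Unc13c were 0.00 and -0.05. These are values of the brightest probe sets. Probe sets of Unc13c with means below the filter, given at the end, stayed farther from 0 without WT 38. The dimmer one past the filter gave -0.04 there.

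Among the 9 active zone genes, WT 38 was the highest of the 7 arrays for 7 of them (77.8% against 15.7% of all genes). These were Rims1, Rims2, Bsn, Pclo, Erc2, Ppfia2 and Ppfia3. Of other genes listed by name with the active zone, WT 38 was the highest array for Rimbp2 and Cask. It was not for Rims4, Ppfia1, Ppfia4, Lin7a, Lin7b, Lin7c, Apba1, Apba2 or Rimkla. For all 9 members WT 38 lay above the mean of the other arrays, as it did for 40.1% of all genes. For Rims1, Rims2, Pclo and Ppfia2 the excess was over 0.3, which 1.75% of all genes reached. Of the 9 genes 8 had a negative CKO minus WT difference (88.9% against 41.1% of all genes), also without WT 38 (against 46.9%). Their median was -0.08 over all arrays and -0.04 without WT 38, against 0.014 and 0.0057 for all genes. Without WT 38 the difference shrank in size for 7 of the 9, as for 6582 of all 16144 genes. None of the 9 had an unadjusted p under 0.05 over all arrays or without WT 38.

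Rims1 and Rims2 encode the RIM scaffolds that link vesicles to calcium channels. Rims1 had 9.28 on CKO 1, 9.16 on CKO 4, 9.23 on CKO 34 and 9.09 on CKO 43, against 9.22 on WT 6, 9.24 on WT 27 and 9.69 on WT 38. WT 38 was 0.49 above the mean of the other 6 arrays, and WT 6 and WT 27 lay within the CKO range. Its difference of -0.19 (SE 0.111) became -0.04 (SE 0.0561) without WT 38. Rims2 had 9.46 on CKO 1, 9.17 on CKO 4, 9.35 on CKO 34 and 9.47 on CKO 43, against 9.23 on WT 6, 9.62 on WT 27 and 9.84 on WT 38. WT 6 lay near the lowest array, CKO 4, while WT 27 and WT 38 were the highest. Its difference was -0.20 (SE 0.136) over all arrays, -0.06 (SE 0.126) without WT 38. Without WT 6 it was -0.37 (SE 0.102), and within set 2 -0.32. Its unadjusted p was under 0.05 without WT 6, within set 2 and with the identifier set as a fixed block, with adjusted p of 0.683, 0.999 and 0.996 in limma.

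Ppfia2 encodes liprin-α2, an organiser of active zone assembly. It had 10.91 on CKO 1, 10.76 on CKO 4, 10.95 on CKO 34 and 10.93 on CKO 43, against 10.98 on WT 6, 10.98 on WT 27 and 11.30 on WT 38. The groups did not overlap with or without WT 38, but WT 6 and WT 27 lay only just above CKO 34. Its difference was -0.20 (SE 0.0875), with an adjusted p of 0.726 in limma, -0.09 (SE 0.0596) without WT 38 and -0.25 without WT 6. Pclo, for the giant scaffold Piccolo, had 10.47 on CKO 1, 10.44 on CKO 4, 10.51 on CKO 34 and 10.49 on CKO 43, against 10.55 on WT 6, 10.49 on WT 27 and 10.87 on WT 38. WT 38 stood above all others, and the difference of -0.16 (SE 0.0845) became -0.04 (SE 0.0388) without it.

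The remaining active zone genes had smaller differences. Bsn, for Bassoon, the partner of Piccolo, differed by -0.07 (SE 0.0585), and by -0.01 without WT 38. Erc1 and Erc2, for the ELKS scaffolds, each differed by -0.08, with SEs of 0.047 and 0.051, and without WT 38 by -0.08 and -0.03. Ppfia3, for liprin-α3, differed by -0.06 (SE 0.0468). Rims3, a short RIM form, was the 1 gene of the group with a positive difference, 0.05 (SE 0.0505).

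**Figure D3:**
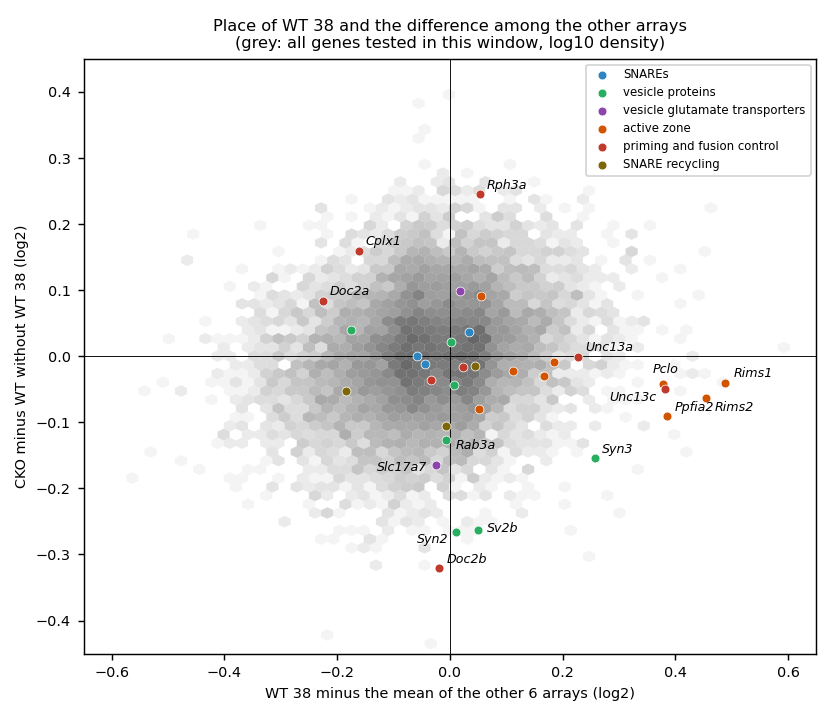
For each presynaptic gene, the log2 signal on WT 38 minus the mean of the other 6 arrays (horizontal axis) against the CKO minus WT difference among those 6 (vertical axis), coloured by role, over the density of all genes tested in this window (grey). Rims1, Rims2, Pclo, Ppfia2 and Unc13c lie far to the right and near 0 on the vertical axis, while Doc2b, Sv2b and Syn2 lie near 0 on the horizontal axis and lowest on the vertical one.

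The core SNARE genes showed little difference between genotypes. Snap25, for the SNAP-25 protein of the plasma membrane, had 12.52 on CKO 1, 12.50 on CKO 4, 12.49 on CKO 34 and 12.49 on CKO 43, against 12.44 on WT 6, 12.48 on WT 27 and 12.52 on WT 38. The arrays lay close together, with WT 38 the highest and WT 6 the lowest. Its difference was 0.02 (SE 0.0363), with a 95% interval of -0.07 to 0.10. Stx1a, for syntaxin 1A, differed by 0.02 (SE 0.0483) with an interval of -0.09 to 0.13. Vamp1, for the vesicle SNARE synaptobrevin 1, differed by 0.01 (SE 0.0391) with an interval of -0.08 to 0.10. The intervals bound the size of a difference and do not show that the levels were equal.

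None of the 3 recycling factors was past an unadjusted p of 0.05. Nsf, the ATPase that separates SNAREs, differed by -0.03 (SE 0.0426), with an interval of -0.12 to 0.07. Its adaptors Napa and Napb, for α-SNAP and β-SNAP, differed by 0.02 (SE 0.0675) and -0.08 (SE 0.0503). Napa was lowest on WT 38, and its difference was -0.05 without that array. Napb differed by -0.11 (SE 0.0532) without WT 38, where the groups did not overlap, and by -0.12 within set 2.

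The vesicular glutamate transporters had differences of opposite sign, neither past a threshold. Slc17a7, for VGLUT1, the main transporter of cortical projection neurons, had 10.39 on CKO 1, 10.62 on CKO 4, 10.41 on CKO 34 and 10.52 on CKO 43, against 10.43 on WT 6, 10.87 on WT 27 and 10.51 on WT 38. WT 27 stood above the rest, and WT 6 lay among the lowest arrays. The difference was -0.12 (SE 0.106), and 0.01 without WT 27. Slc17a6, for VGLUT2, which is used early in cortical neurons and by thalamic neurons, had 10.65 on CKO 1, 10.73 on CKO 4, 10.81 on CKO 34 and 10.70 on CKO 43, against 10.57 on WT 6, 10.68 on WT 27 and 10.71 on WT 38. Its difference was 0.07 (SE 0.0524), with 0.10 without WT 38 and 0.028 without WT 6. Thalamic markers, which could come with tissue from below the cortex, had a positive difference for 6 of 8 (against 58.9% of all genes). These markers averaged 9.20 to 9.35 on CKO arrays and 9.22 to 9.25 on WT arrays. CKO 34, the highest array for Slc17a6, had the lowest average of these markers. Among them Lef1 and Plekhg1 lay farthest from the other arrays on WT 38. Their part in the Slc17a6 difference was not tested.

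Whether related genes differed in response was tested for 19 pairs within families, from the log2 difference between both genes on each array. This removes whatever moved both probe sets alike on an array. With 35 ways to split the arrays, an exact two-sided permutation test can give no p below 0.0286, and 5 pairs reached that value. Doc2a was higher relative to Doc2b by 0.38 (SE 0.079), and the relative value was higher on all 4 CKO arrays than on the 3 WT arrays. Sv2b against Sv2c gave -0.31 (SE 0.064), and Cplx1 was higher relative to Cplx2 by 0.19 (SE 0.049). Rims1 against Rims3 gave -0.25 (SE 0.103) and Sv2a against Sv2c gave -0.13 (SE 0.037). For each of these 5 pairs the exact permutation p adjusted over the 19 pairs was 0.109, so none passed. Given the smallest possible p, no pair could pass, whatever its difference, unless many pairs reached that value.

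Without WT 38 the Doc2, Sv2b and Sv2c, and complexin differences were 0.41, -0.30 and 0.195, while Rims1 against Rims3 was -0.13 and Sv2a against Sv2c was -0.08. With 15 splits no exact permutation p can then fall below 0.0667, which 7 pairs reached. Syn2 against Syn3 gave -0.01 (SE 0.156), Rims1 against Rims2 0.01 (SE 0.130) and Erc1 against Erc2 0.00 (SE 0.064).

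**Figure D4:**
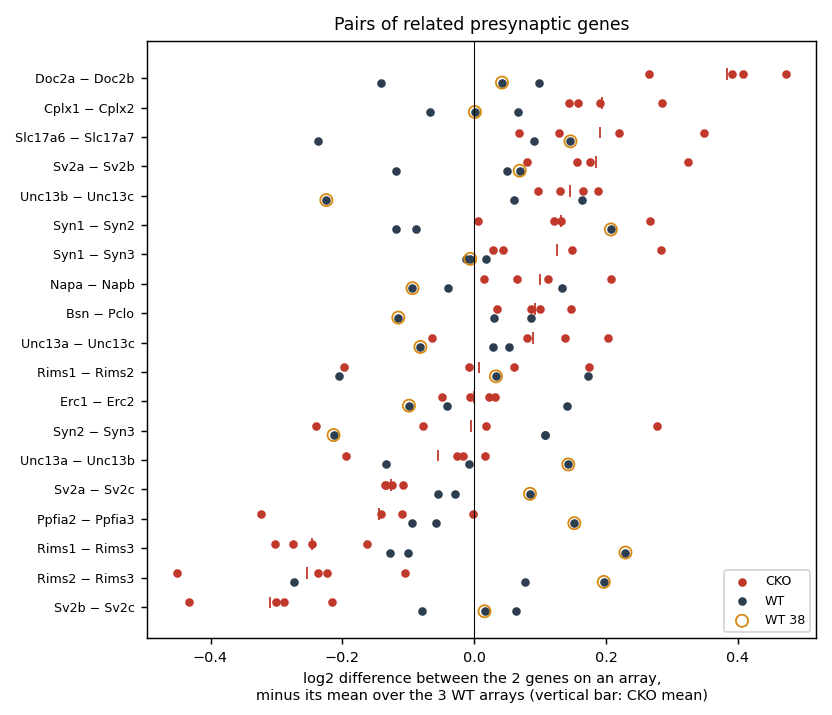
Log2 difference between both genes of each of 19 related pairs on each array, minus its mean over the 3 WT arrays (horizontal axis), for CKO (red, mean as a vertical bar) and WT (dark) arrays, with WT 38 ringed. CKO arrays lie to the right of all WT arrays for Doc2a minus Doc2b and Cplx1 minus Cplx2, and to the left for Sv2b minus Sv2c.

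Which array was highest differed between the role groups. WT 38 was the highest array for 12 of 33 members (36.4% against 15.7% of all genes) and the lowest for 4 (12.1% against 30.8%). WT 27 was the highest for 11 (33.3% against 18.9%), among them 6 of the 8 vesicle proteins, Syn2, Syp, Sv2a, Sv2b, Sv2c and Rab3a. CKO 4 and CKO 43 were each the lowest for 8 members (24.2%), against 10.4% and 8.30% of all genes. Neither was the highest for any member, against 18.9% and 5.34% of all genes. CKO 4 was the lowest for 5 of the 9 active zone genes. WT 6 was the lowest for 8 (24.2%), near its 21.7% of all genes. The SD was larger among WT than among CKO arrays for 28 of 33 members (84.8% against 69.2% of all genes).

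**Figure D5:**
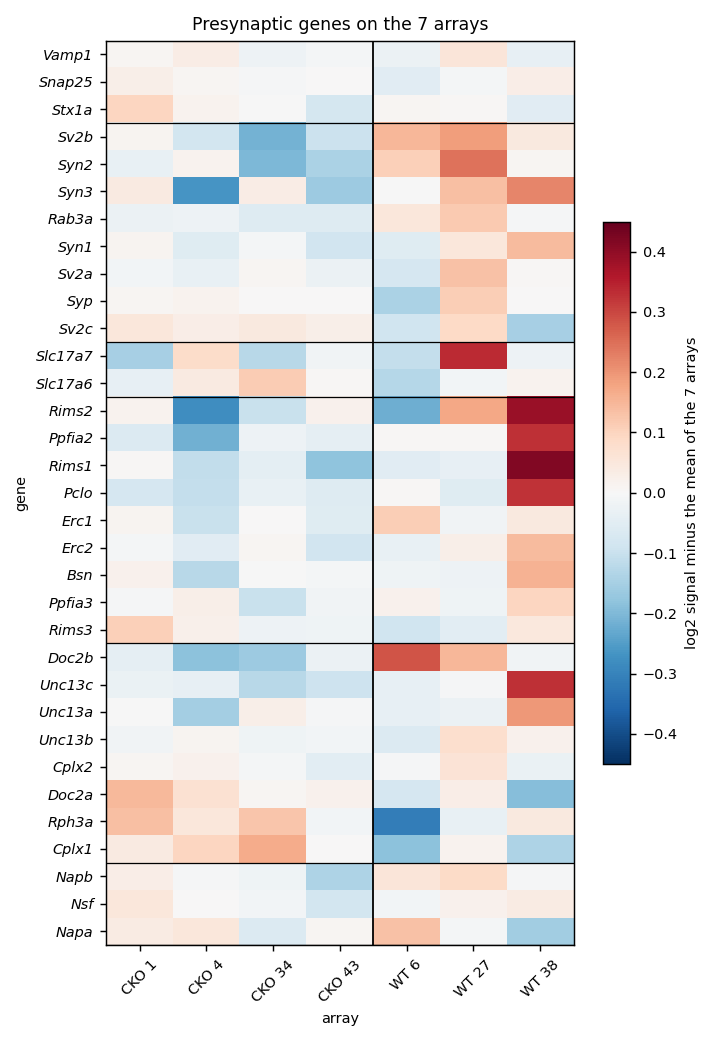
Log2 signal of each of the 33 presynaptic genes on each array minus its mean over the 7 arrays (colour), in the role groups SNAREs, vesicle proteins, glutamate transporters, active zone, priming and fusion control, and SNARE recycling from top to bottom. The column of WT 38 is highest for most active zone genes, and that of WT 27 for most vesicle proteins.

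Markers of dividing cells and progenitors were lowest on WT 38. All 15 tested of 16 had a positive CKO minus WT difference, as 58.9% of all genes did, 5 of them at an unadjusted p under 0.05 (33.3% against 4.17% of all genes) and 0 past the adjusted p with limma. They averaged 11.45 to 11.58 on CKO arrays and 11.32 to 11.46 on WT arrays. WT 38 was the lowest array for 11 of the 15 (73.3% against 30.8% of all genes). Without WT 38, 12 of the 15 were positive and 3 negative (20% against 46.9% of all genes). In that fit 4 were higher at an unadjusted p under 0.05 (26.7% against 5.00%), and the median went from 0.13 to 0.08. Nes and Hes1 lay farthest from the other arrays on WT 38, by -0.36 and -0.31. General neuronal genes gave 12 of 16 negative (75% against 41.1% of all genes), with a median of -0.04. Without WT 38 they gave 8 of 16 negative (50% against 46.9%), with a median of -0.01. WT 38 was the highest array for 6 of these 16 (37.5% against 15.7% of all genes), and Eno2 and Mapt deviated most there, by -0.30 and 0.20.

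Markers of the striatum, which lies under the neocortex and is rich in GABA neurons, had mostly positive differences. Of 12 listed 10 were tested and 9 had a positive difference (against 58.9% of all genes). At an unadjusted p under 0.05, 6 of 10 were higher (against 4.17% of all genes), and none passed the adjusted p with limma. They averaged 9.06 to 9.42 on CKO arrays and 8.82 to 8.98 on WT arrays, without overlap, and the median difference was 0.26 over all arrays and 0.28 without WT 38. Among them Penk and Ppp1r1b lay farthest from the other arrays on WT 38, by -0.44 and -0.32. Markers of meninges and choroid plexus were positive in 7 of 7 tested of 8 (against 58.9%). Their averages were 8.51 to 8.78 on CKO arrays and 8.37 to 8.57 on WT arrays. Without WT 38, 6 of the 7 were positive and 1 negative (14.3% against 46.9% of all genes). Astrocyte markers were positive in 9 of 10 (against 58.9%), and averaged 9.63 to 9.71 on CKO and 9.52 to 9.63 on WT arrays. WT 38 was the lowest array for 7 of 10 (70% against 30.8% of all genes). Without WT 38, 7 of the 10 were positive and 3 negative (30% against 46.9%), and the median went from 0.10 to 0.05. Of 7 red blood cell markers 3 were tested, and WT 38 was the lowest array for all 3 (against 30.8% of all genes). It lay -1.83 from the mean of the others for Hbb-y and -0.61 for Hba-x. These 3 averaged 9.47 to 9.97 on CKO arrays, 9.52 on WT 6, 9.69 on WT 27 and 8.77 on WT 38. The part of any of these cells in the presynaptic differences, higher or lower, was not tested.

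Other genes of the vesicle cycle, chosen by name, also had mostly negative differences. Of 82 listed genes 77 were tested. Of these 47 had a negative difference (61.0% against 41.1% of all genes), and the median was -0.02 over all arrays and without WT 38. None passed the adjusted p with limma. At an unadjusted p under 0.05, 6 were lower (7.79% against 2.61% of all genes) and 0 higher (against 4.17%). Sncb, for β-synuclein, a protein of presynaptic terminals, had 9.65 on CKO 1, 9.46 on CKO 4, 9.57 on CKO 34 and 9.43 on CKO 43, against 9.88 on WT 6, 9.75 on WT 27 and 9.95 on WT 38. Every CKO array lay below every WT array, and the difference was -0.33 (SE 0.0676), with an adjusted p of 0.427 in limma, and -0.29 (SE 0.0722) without WT 38.

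Genes of vesicle endocytosis came next. Dnajc6, for auxilin, which uncoats clathrin-coated vesicles, differed by -0.15 (SE 0.0517), and Bin1, an amphiphysin that shapes membranes, by -0.12 (SE 0.0398). Rab3b, a paralog of Rab3a, differed by -0.13 (SE 0.0484). The groups did not overlap for these genes. Over the whole list they did not overlap for 5 lower genes (6.49% against 2.99% of all genes). On the higher side they did not overlap for 3, Baiap3, Slc32a1 and Dnm2 (3.9% against 5.39%). The smallest p-values on the higher side belonged to Baiap3, a Munc13-related gene, with 0.10 (SE 0.0466), to Sncg, for γ-synuclein, with 0.21 (SE 0.103), to Slc32a1, the vesicular GABA transporter, with 0.12 (SE 0.0613), and to Slc18a2, the vesicular monoamine transporter, with 0.90 (SE 0.446). Interneuron markers, a list that also holds Slc32a1, were positive in 7 of 10 tested of 11 (against 58.9% of all genes). They averaged 10.10 to 10.52 on CKO arrays and 10.10 to 10.30 on WT arrays. At an unadjusted p under 0.05, 2 were higher (20% against 4.17%), Dlx2 with 0.51 (SE 0.178) and Dlx5 with 0.39 (SE 0.116). The 1 lower (10% against 2.61%) was Npy with -0.51 (SE 0.0644), and none passed the adjusted p with limma.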

How the data were processed

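RNA of 7 mouse neocortex samples was measured on 1 array each. Values are the authors' log2 signals, for which the submitters' processing notes name RMA and Affymetrix Expression Console; neither versions nor a genome build is named there. RMA equalises the arrays, so the columns shared nearly 1 distribution (each median 8.23), and a change common to all genes cannot be seen. The number of arrays and the spread of single arrays limit the precision.

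The platform annotation gave 1 gene symbol to 21786 of 35468 probe sets, several to 1621 and none to 12061. Of the first kind, 21695 matched the RefSeq gene table of GRCm38.p6 by Entrez identifier, and 0 were renamed. Probe sets with a mean below the 25th percentile (6.84) were left out, and the brightest stood for each gene. CKO was compared with WT with limma 3.58.1 (lmFit and eBayes, 5 residual and 3.28 prior degrees of freedom) in R 4.3.3, without covariates. The script was tested on simulated data. Pairs of related genes were compared with an exact permutation test. Figures were drawn with matplotlib 3.10.9.

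The members and lists were chosen with earlier results of these data known, so counts are descriptions. The list of other vesicle cycle genes includes Rimkla, an enzyme and not an active zone protein. All members were named; values on every array were given by rule for those with an unadjusted p under 0.05, no overlap between groups, a difference among the 6 largest or a change of sign of at least 0.10 without WT 38, and for others (Rims1, Pclo, Unc13c, Rph3a, Snap25 and the glutamate transporters) after their values were seen. Of the other vesicle cycle genes, the 4 with the smallest p in each direction were named. Alternatives covered normalization, filter, probe set choice, variance model, array weights, identifier sets and left-out arrays. No protein sequences were used here.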

Additional observations from a re-analysis of the deposited data

How the results depend on the processing

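No paired analysis was possible because the groups share no replicate number. Under all 19 alternatives no member passed an adjusted p of 0.05 with limma, nor did any at 0.1 over all arrays. Sv2b kept an unadjusted p under 0.05 in all 19, Syn2 in 18 (all but without WT 27), Doc2b in 17 and Cplx1 in 14. Syn3 kept it in 11, Rab3a in 9 and Doc2a in 8. The difference of each of these 7 kept its sign in all 19. Its range was -0.27 to -0.18 for Sv2b, -0.30 to -0.15 for Syn2, -0.32 to -0.16 for Doc2b and 0.14 to 0.24 for Cplx1. It was -0.27 to -0.15 for Syn3, -0.13 to -0.06 for Rab3a and 0.08 to 0.20 for Doc2a. Members higher at an unadjusted p under 0.05 numbered 2 (6.06% against 4.17% of all genes). They numbered 1 with a variance trend (3.03% against 4.13%), with the identifier set as a random block (against 3.65%) or over all probe sets. They numbered 0 with array weights (against 2.20%), with the set as a fixed block (against 1.39%) or within set 2 (against 1.08%). Leaving out 1 array gave 0 to 3, with 0 without WT 6 (against 3.90%) and 3 without WT 27 (9.09% against 7.68%). It gave 1 without CKO 1 (3.03% against 2.37%), CKO 4 (against 2.31%), CKO 43 (against 3.74%) or WT 38 (against 5.00%). Members lower at that p numbered 5 (15.2% against 2.61%), and 3 over all probe sets, for which no share was computed. Leaving out 1 array gave 3 to 8. It gave 3 without CKO 4 (9.09% against 1.51%) or CKO 43 (against 2.00%), and 8 without WT 6 (24.2% against 2.69%). Members without overlap numbered 0 higher (against 5.39% of all genes) and 4 lower (12.1% against 2.99%). Centring each array on its median gave 2 higher (6.06% against 6.49% of all genes). Set 2 alone, with 2 arrays a group, gave 14 lower (42.4% against 17.3%), which cannot be set against the count over 7 arrays, and leaving out 1 array gave 0 to 4 higher and 4 to 10 lower, with 2 higher without CKO 43 (7.26% of all genes), 4 without WT 27 (16.1%) and 3 without WT 38 (11.7%), and 10 lower without WT 6 (7.26%). The members' median of -0.07 ranged from -0.084 to -0.030 when 1 array was left out, with -0.037 without CKO 4 and the value nearest 0 without WT 38. Over all genes 4 passed, against 1 with array weights or over all probe sets, 0 with the set as a fixed block or within set 2, and 1 to 6 when 1 array was left out, with 6 without CKO 1 and 1 without any other. Other vesicle cycle genes higher at an unadjusted p under 0.05 numbered 0. They numbered 1 with the 50th percentile filter (where 4.06% of all genes were higher), with array weights (2.20%) and within set 2 (1.08%). They numbered 0 to 3 when 1 array was left out, with 3 without WT 38 (5.00%). The cause of these shifts was not tested. The fixed block and set 2 alone rest on the same 4 arrays, since sets 1 and 3 held 1 group each.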

Other observations

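Slc18a2, with the largest difference in size among the other vesicle cycle genes, had an adjusted p of 0.727 by limma. Its log2 signals were 8.99 on CKO 1, 7.54 on CKO 4, 9.15 on CKO 34 and 9.25 on CKO 43, against 8.02 on WT 6, 7.10 on WT 27 and 8.38 on WT 38. CKO 4 lay among the WT arrays and the other CKO arrays above all of them.

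Unc13c was covered by 7 probe sets, and the difference was negative for each of them, over all arrays and without WT 38. The brightest gave -0.17. A dim probe set whose mean of 5.52 fell below the filter gave -0.63 (SE 0.139), with log2 signals of 5.60 on CKO 1, 5.07 on CKO 4, 5.21 on CKO 34 and 5.14 on CKO 43, against 6.01 on WT 6, 5.71 on WT 27 and 5.93 on WT 38. Without WT 38 the brightest gave -0.05 and the dim one -0.60. A probe set with a mean of 7.55 gave -0.04 there. The rest, all with means below the filter, gave -0.26, -0.22, -0.20 and -0.19. These probe sets were singled out after their values were seen. For Unc13a, 3 probe sets gave 0.04, -0.10 and -0.08, and for Erc1, 3 gave -0.04, -0.01 and -0.08.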
